A study of Mus musculus with 2 samples.

Results

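Of the 32285 genes counted in both libraries, 10 are described here: Tbx21, Eomes, Zfp683, Prdm1, Runx3, Ahr, Bhlhe40, Hic1, Id2 and Id3, transcription factors and Id proteins known from memory and tissue-resident CD8 T cells. They were chosen by gene symbol, and each matched 1 row of both count matrices. Transcripts were counted in single CD8 T cells from mammary adipose tissue (4th fat pad) of C57BL/6 mice, sorted as live CD45+ TCRB+ CD8a+ cells and not treated. One group was multiparous (called parous), mice that had been through several pregnancies, and the other was virgin. Each group was 1 library made from cells pooled from at least 5 mice, so differences between mice and between the parous and virgin conditions cannot be told apart, and no test was made. All intervals below are exact 95% intervals that cover counting error only, and UMIs of 1 cell are not independent.

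CD8 T cells that have met antigen can circulate as effector or memory cells or settle in a tissue as resident memory cells. T-bet (Tbx21) and Eomes are T-box factors that drive effector functions, and both are known to be turned down as cells become resident, with some T-bet kept for the response to IL-15. Hobit (Zfp683) and Blimp-1 (Prdm1) repress genes for leaving the tissue, Runx3 sets up the CD8 and residency programmes, and Ahr, Bhlhe40 and Hic1 are known for keeping T cells in barrier tissues or for their fitness there. Id2 and Id3 lack a DNA-binding region and hold back E proteins, with Id2 known from effector cells and Id3 from naive and long-lived memory cells.

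The libraries differed in depth and in the cells they held. After the cell filter the parous library kept 3019 of 4927 barcodes and the virgin library 2511 of 2526, with medians of 4108 and 7001 UMIs (unique molecular identifiers, each 1 captured RNA molecule) per cell. Clustering without the members placed 2983 parous and 2499 virgin cells in 11 clusters of CD8 T cells. Among the kept cells 14 barcodes occurred in both libraries. A cluster led by Adgrg1, Ckb and Pdcd1 (also marked by Car2 and Cdh1, cluster 4) held 482 parous and 21 virgin cells. Another (cluster 5, marked by Fcer1g and Tyrobp) held 313 parous cells and 1 virgin cell. In cluster 5, 22.3% of cells had a UMI of Cd8b1, the CD8 beta chain, against 97.1% of naive-like cells, and a list of 7 NK or innate-like T cell markers summed to 6019 CPM (UMIs of a gene scaled to the same total, as counts per 1e6 UMIs). Those 7 markers summed to 805.6 CPM over all parous CD8 T cells and 118.1 CPM over all virgin ones. Clusters 4 and 5 made up 26.7% of parous and 0.880% of virgin cells, so the members' comparisons over all cells are also given without them. Over all CD8 T cells the marker lists of B, myeloid, fibroblast, adipocyte, endothelial, epithelial and erythroid cells each summed to at most 55.2 CPM, and CD4 T cell markers to 208 CPM in parous and 168 CPM in virgin cells. Of 10 dissociation and early response genes, Fos and Jun were at least 1.5-fold lower and Atf3 higher in the parous library, and 4 were lower and 1 higher without clusters 4 and 5. Over all measured genes 12.5% were lower and 6.48% higher, or 12.8% and 4.5% without those clusters.

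The other clusters held cells of both libraries. They were naive or central memory-like (488 parous and 983 virgin cells), tissue-resident memory-like (142 and 139), circulating effector-like (92 and 176), cycling-like (59 and 117) and interferon-responding-like (44 and 69). The rest are called by genes that mark them: Ccl3 and Ccl4 (317 and 578, cytokine-expressing activated-like), Il2 and Gzmm (567 and 193, unnamed), Klra6 (331 and 190, NK or innate-like T-like) and a low-RNA cluster (148 and 32, unnamed, led by Fabp4, Mt1 and AY036118). The tissue-resident memory-like cells carried Itga1, Cxcr6, Xcl1, P2rx7, Ccr8 and Rgs1, and had little Itgae (25.6 CPM in parous and 1.62 CPM in virgin cells). Of the 9 listed resident markers, Cd69, Cdh1 and Itgae did not pass the naming rule there. In clusters 4 and 5 also 6 of the 9 passed, tied with another list. The 9 resident markers summed to 2574 CPM in parous and 3217 CPM in virgin resident-like cells. They summed to 5923 CPM in cluster 5 and 3115 CPM in parous cluster 4 cells.

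The 10 genes together made up 970.5 CPM of parous and 975.0 CPM of virgin CD8 T cells. Hic1 and Ahr were at least 1.5-fold higher in the parous library, which 6.48% of 11912 measured genes also were. Id2 was at least 1.5-fold lower, which 12.5% of genes were. The other 7 lay between, from Prdm1 at a log2 ratio of -0.32 to Runx3 at 0.40. The median over all measured genes was -0.13 and the median of the members 0.16, or 0.03 without clusters 4 and 5. A median-of-ratios scaling, which moved the median of all genes to 0.00, kept the sign of all 10 and left Id2 at -0.46, short of 1.5-fold.

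**Figure D1:**
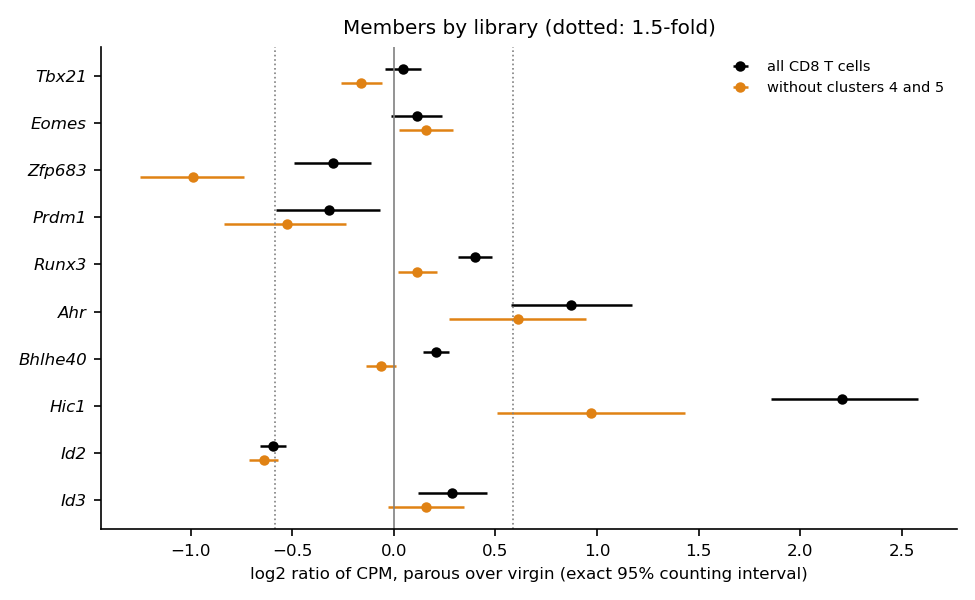
Log2 ratio of CPM, parous over virgin, for each of the 10 genes (x axis), over all CD8 T cells (black) and without clusters 4 and 5 (orange), with exact 95% counting intervals. Dotted lines mark 1.5-fold. Hic1 stands at 2.21 with and 0.97 without those clusters, Zfp683 moves from -0.30 to -0.99, and Id2 stays near -0.6.

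Id2 and Id3 encode inhibitors of the E proteins. Id2 (ENSMUSG00000020644, chr12:25093799-25097140, minus strand, GRCm38) had 2858 UMIs or 215.5 CPM in parous cells and 6497 UMIs or 325.9 CPM in virgin cells. Parous cells had 1.51-fold less, a log2 ratio of -0.60 (-0.66 to -0.53) and -0.64 without clusters 4 and 5. Id3 (ENSMUSG00000007872, chr4:136143497-136145755, plus strand) had 39.0 CPM (517 UMIs) and 32.0 CPM (637 UMIs), a log2 ratio of 0.29 (0.12 to 0.46). The ratio was 0.16 without clusters 4 and 5, and its interval (-0.03 to 0.35) held 0.

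The largest Id2 difference within a state was in the tissue-resident memory-like cells. There Id2 had 958 UMIs or 776 CPM (728 to 827) in virgin cells, its highest level of any virgin state, and 129 UMIs or 253.5 CPM (212 to 301) in parous cells. The intervals did not overlap, and the virgin level was 3.05-fold higher (log2 ratio of parous over virgin -1.61, interval -1.89 to -1.35). With each cell thinned to 1400 UMIs, 61.9% of virgin and 29.8% of parous resident-like cells had an Id2 UMI (92.1% and 47.9% unthinned). Id2 and Zfp683 were the 2 members at least 1.5-fold lower in the parous resident-like cells, and Ahr the 1 that was higher, of 8 measured. In this cluster 11.9% of 5730 genes were lower and 13.8% higher by that much. Among the other states that held at least 25 cells of both libraries, Id2 ratios ran from -0.16 in the Ccl3 and Ccl4 cluster to -0.73 in the interferon-responding-like cells, all below 0. In cluster 4, with 21 virgin cells, the ratio was -0.12 (-0.58 to 0.42). In naive-like cells Id2 had 85.9 CPM in parous and 103 CPM in virgin cells, and the intervals overlapped (74.3 to 98.8 and 95.7 to 111). The log2 ratio there was -0.26, and its interval (-0.49 to -0.03) did not hold 0. None of the 6 members measured in naive-like cells differed by 1.5-fold, where 4.17% of genes were higher and 11.3% lower.

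Cells were also grouped by surface genes alone, after the data were seen. Among thinned cells with a UMI of Itga1, the integrin alpha1 chain of resident cells, 55.2% of 87 virgin cells and 21.8% of 266 parous cells had an Id2 UMI. Without clusters 4 and 5 these were 56.6% of 83 and 28.1% of 89. Cells with Itgae and no Itga1 UMI had Id2 in 22.7% of 66 virgin and 24.3% of 206 parous cells, or 20.6% of 63 and 14.8% of 54 without those clusters.

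Id3 was distributed in nearly the opposite way. In the virgin library the naive-like cells held 71.0% of Id3 UMIs, with 61.7 CPM (56.1 to 67.7), and the tissue-resident memory-like cells had 1 UMI. In the parous library naive-like cells had 53.1 CPM (44.0 to 63.4) and held 23.4% of Id3 UMIs. Parous Id3 was also found in cluster 5 (64.0 CPM), the Klra6 cluster (44.6 CPM, against 48.5 CPM in virgin cells) and cluster 4 (38.4 CPM). The low-RNA cluster had the highest Id3 level in both libraries, 254.5 CPM (55 UMIs) in parous and 113 CPM (13 UMIs) in virgin cells. Fabp4, an adipocyte marker, led that cluster, and its part in the Id3 value was not tested. Without the naive-like cells Id3 was 2.46-fold higher in the parous library, against 1.22-fold over all cells.

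The ratio of Id2 to Id3 UMIs also varied by state. Capture can differ between transcripts, so the ratio is read across states and not as a count of proteins. On the log2 scale it was 2.47 (2.33 to 2.60) in the parous and 3.35 (3.23 to 3.47) in the virgin library. The values were 2.54 (2.38 to 2.71) and 3.34 (3.23 to 3.46) without clusters 4 and 5. It was lowest among the named states in naive-like cells, 0.69 in parous and 0.74 in virgin cells, whose intervals overlapped. In virgin resident-like cells it was 9.32 (7.42 to 15.2), from 958 Id2 and 1 Id3 UMIs, and in parous ones 4.56 (3.43 to 6.34), from 129 and 5. In circulating effector-like cells it was 6.56 in virgin and 5.16 in parous cells. In cycling-like cells it was 5.67 and 3.39, with intervals that did not overlap. Cluster 5 had a ratio of 1.27 (0.90 to 1.66), near that of the Klra6 cluster (1.37 in parous and 1.65 in virgin cells). Thinned cells with Id2 had an Id3 UMI in 1.60% of virgin cases (0.83% to 2.78%) and cells without Id2 in 5.12% (4.13% to 6.26%). In parous cells these shares were 4.08% and 4.89%, with overlapping intervals. These shares pool all states. Within virgin naive-like cells alone they were 6.80% (2.78% to 13.5%) and 8.30% (6.56% to 10.3%), with overlapping intervals. Within parous naive-like cells they were 3.70% (0.45% to 12.7%) and 6.78% (4.58% to 9.59%), which overlapped too.

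**Figure D2:**
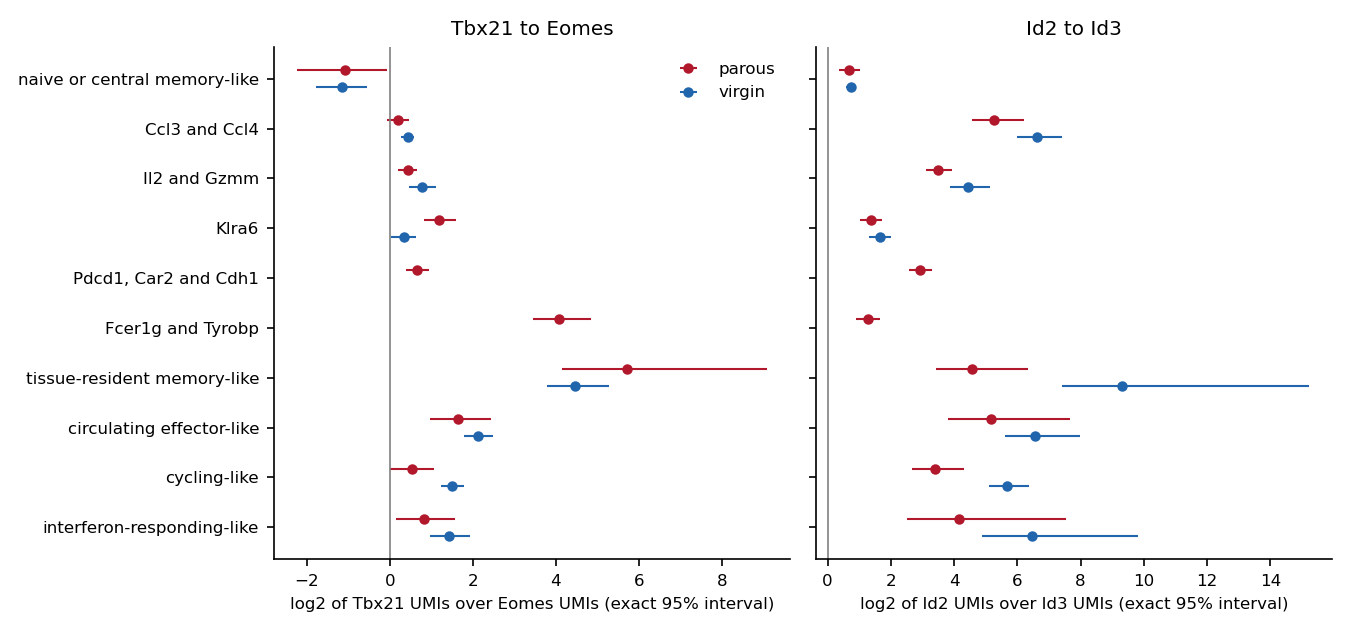
Log2 of summed Tbx21 over Eomes UMIs (left) and of Id2 over Id3 UMIs (right) in each state (y axis) in parous (red) and virgin (blue) cells, with exact 95% counting intervals. Tbx21 stands farthest above Eomes in the tissue-resident memory-like cells and in the parous Fcer1g and Tyrobp cluster, and below it in naive-like cells. Id2 stands farthest above Id3 in virgin resident-like cells.

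Hic1, a zinc finger repressor, had the largest difference between the libraries. Hic1 (ENSMUSG00000043099, chr11:75164565-75169519, minus strand) had 265 UMIs or 19.98 CPM in parous and 86 UMIs or 4.31 CPM in virgin cells, 4.61-fold higher in the parous library (log2 ratio 2.21, interval 1.86 to 2.58). At 1400 UMIs 2.73% of parous and 0.724% of virgin cells had a UMI (6.80% and 2.84% unthinned). Cluster 5 held 49.1% and cluster 4 20.4% of the parous Hic1 UMIs. Without cluster 5 the parous level was 2.61-fold higher, and without both clusters 1.96-fold higher (log2 ratio 0.97, interval 0.51 to 1.43). The NK or innate-like marker sum stood higher in cluster 5 as given above, and its part in the Hic1 level was not tested.

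By state, Hic1 was highest in cluster 5, at 99.0 CPM (82.7 to 117), and its interval lay above those of all other parous states. Cluster 4 (29.2 CPM), parous resident-like cells (25.6 CPM) and parous circulating effector-like cells (20.6 CPM) followed with overlapping intervals. Virgin resident-like and circulating effector-like cells had 17.8 and 18.1 CPM, 22 UMIs each. Parous naive-like cells had none, and virgin ones 9 UMIs (1.23 CPM). Among thinned parous naive-like cells it was 0 of 482, which by a limit of 3 counts allows a share of up to 0.622%. That limit is on cells with a UMI at 1400 UMIs, not on cells that express the gene. Within the Ccl3 and Ccl4 cluster Hic1 was 4.52-fold higher in parous cells from 16 and 10 UMIs. It was 1 of 2 measured members (with Id3, 2.26-fold) past 1.5-fold there, where 4.25% of genes were higher and 10.9% lower. Zfp683, with 9 parous and 55 virgin UMIs, was under the minimum of 10 UMIs there. Its level was 2.03-fold higher in virgin cells (log2 ratio of parous over virgin -1.02, interval -2.29 to -0.06). In the resident-like cells the Hic1 log2 ratio was 0.54, from 13 and 22 UMIs, and its interval (-0.59 to 1.57) held 0. The 250 bases before both RefSeq starts of Hic1 are shown, picked after the data were seen. They hold 3 copies of the core letters of the Ahr site (GCGTG). A link between Ahr and Hic1 was not tested. The windows come from RefSeq on GRCm38.p6, 5′ to 3′ on the gene's strand. The window of start 1 lies before the gene as GENCODE annotates it, and that of start 2 in its intron.
Hic1 start 1, chr11:75170256-75170505: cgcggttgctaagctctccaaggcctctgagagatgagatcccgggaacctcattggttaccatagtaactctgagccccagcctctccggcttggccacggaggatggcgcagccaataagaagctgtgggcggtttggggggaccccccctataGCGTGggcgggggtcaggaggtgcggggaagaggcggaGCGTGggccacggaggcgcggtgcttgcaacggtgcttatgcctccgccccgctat
Hic1 start 2, chr11:75168153-75168402: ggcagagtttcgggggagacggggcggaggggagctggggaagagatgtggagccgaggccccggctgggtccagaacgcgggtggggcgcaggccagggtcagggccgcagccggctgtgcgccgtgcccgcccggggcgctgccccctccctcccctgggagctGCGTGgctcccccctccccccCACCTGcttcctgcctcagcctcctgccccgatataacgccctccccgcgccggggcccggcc

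Capitals mark GCGTG at 94 and 56 bases before start 1 and at 84 bases before start 2, and CACCTG, an E-box (CANNTG), at 63 bases before start 2. On both strands an E-box was found in 66.2% and an Ahr core in 28.2% of 32841 windows of this length. The Hic1 windows had 64.4% and 77.2% G and C bases, against a median of 52.4% over all windows. They held 18 and 22 copies of CG, against a median of 6. The Ahr core itself holds CG, and the 28.2% was not matched for this. A match describes letters only. The windows of all members that matched RefSeq, 9 windows for 7 of the 10 genes, were searched in the same way. Those of Id2 and Id3 reach into exons annotated by GENCODE and are not shown. Prdm1 also held 2 Ahr cores and 2 E-boxes, and Id3 held 1 Ahr core, 8 bases before its start. A Runx3 window held 2 copies of the Runx letters TGTGGT, found in 14.05% of all windows. None of the 9 held the class B E-box CACGTG (6.02% of windows), the letters known for Bhlhe40, or the T-box letters AGGTGTGA (1.12%).

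Ahr, the receptor for aryl hydrocarbons that acts as a transcription factor when a ligand binds, was scarce. Ahr (ENSMUSG00000019256, chr12:35497974-35535038, minus strand) had 212 UMIs or 16.0 CPM in parous and 174 UMIs or 8.73 CPM in virgin cells, 1.83-fold higher in parous (log2 ratio 0.87, interval 0.58 to 1.17) and 1.53-fold without clusters 4 and 5. In the virgin library 5 cells held 17.2% of its UMIs, and in the parous library 8.49%. Thinned cells had a UMI in 2.66% of parous and 0.844% of virgin cases (5.73% and 4.36% unthinned). Its highest parous level was in cluster 5, 32.0 CPM (23.1 to 43.2), and naive-like cells had 3.95 and 4.51 CPM in parous and virgin cells. In resident-like cells it had 11 parous and 12 virgin UMIs, 21.6 and 9.72 CPM, with a ratio interval that held 0 (log2 1.16, -0.17 to 2.46). Of 9 partners, relatives and targets of Runx3 and Ahr, 5 were measured. Tiparp, an Ahr target, was 1.53-fold higher in parous cells (76.8 and 50.1 CPM), and none of the 5 was 1.5-fold lower. Among all measured genes 6.48% were higher and 12.5% lower by 1.5-fold. None of the 5 was past 1.5-fold without clusters 4 and 5, where Tiparp had 65.0 and 50.1 CPM. Arnt, the partner Ahr binds DNA with, had 40.8 and 34.1 CPM. Cyp1a1, the classical Ahr target, had 0 UMIs in both libraries.

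Bhlhe40, a repressor known to support mitochondrial function in resident and tumour T cells, had the most UMIs of the members in the parous library. Bhlhe40 (ENSMUSG00000030103, chr6:108660629-108666925, plus strand) had 269 CPM in parous and 233 CPM in virgin cells (3570 and 4643 UMIs), a log2 ratio of 0.21 that was -0.06 without clusters 4 and 5. It separated naive-like cells from all others: 7.02 CPM in parous and 8.60 CPM in virgin naive-like cells, and at least 109 CPM in every other state of either library. The highest levels were in circulating effector-like cells, 533 CPM (452 to 624) in parous and 681 CPM (635 to 729) in virgin cells. Resident-like cells had 385 and 455 CPM. Within the states that held at least 25 cells of both libraries its log2 ratios lay between -0.35 and 0.21, apart from 0.76 in the low-RNA cluster.

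**Figure D3:**
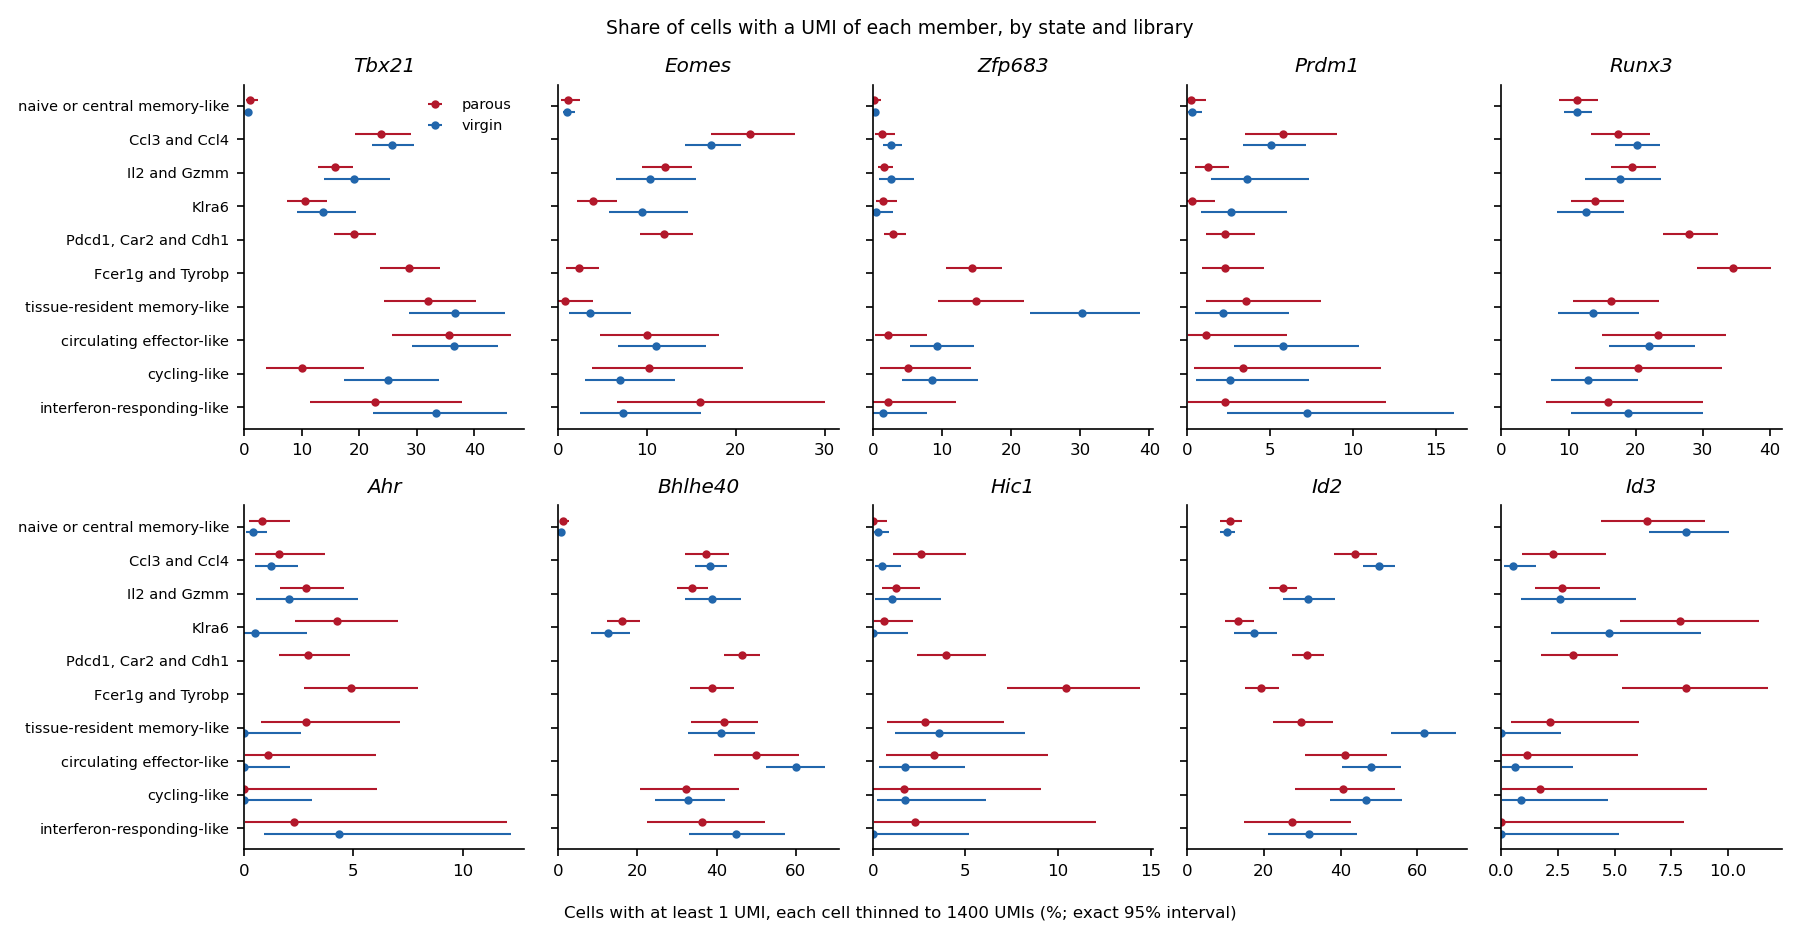
Share of cells with at least 1 UMI of each gene (x axis, percent, each cell thinned to 1400 UMIs, exact 95% interval) by state (y axis) in parous (red) and virgin (blue) cells. Clusters with under 25 virgin cells show parous values only, and the low-RNA cluster is left out. Bhlhe40 and Tbx21 are near 0 in naive-like cells, Hic1 is highest in the Fcer1g and Tyrobp cluster, and Id2 and Zfp683 are higher in virgin than in parous resident-like cells.

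Zfp683 encodes Hobit, a zinc finger repressor of resident lymphocytes and NK cells. Zfp683 (ENSMUSG00000049410, chr4:134053838-134058996, plus strand) had 351 UMIs or 26.5 CPM in parous and 650 UMIs or 32.6 CPM in virgin cells, a log2 ratio of -0.30 (-0.49 to -0.11). The cells behind these totals differed. In the virgin library the tissue-resident memory-like cells held 39.1% of Zfp683 UMIs, and in the parous library 15.4%, while cluster 5 held 40.5%. Without clusters 4 and 5 the log2 ratio was -0.99 (-1.25 to -0.74), which made Zfp683 the second member, with Id2, past 1.5-fold lower; 12.8% of 11524 genes were lower and 4.5% higher by that much in that comparison. Hic1 and Ahr were again the members that were higher.

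Resident-like cells had 206 CPM (181 to 233) of Zfp683 in virgin and 106 CPM (79.7 to 138) in parous cells, 1.93-fold higher in virgin cells (log2 ratio of parous over virgin -0.95, interval -1.41 to -0.53). Thinned shares were 30.2% and 14.9% (68.3% and 27.5% unthinned), and 0.305% and 0.207% in naive-like cells, which had median depths of 7403 and 4544.5 UMIs. In the parous library cluster 5, at 108 CPM (91.1 to 127), was level with the resident-like cells within the counting intervals. Circulating effector-like cells had 109 CPM in virgin (133 UMIs) and 27.5 CPM in parous cells (8 UMIs), and the intervals did not overlap (91.6 to 130 and 11.9 to 54.2).

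Prdm1 encodes Blimp-1, a repressor active in effector and resident T cells. Prdm1 (ENSMUSG00000038151, chr10:44437177-44528501, minus strand) had the fewest UMIs of the members in the parous library, 195 or 14.7 CPM, against 366 UMIs or 18.4 CPM in virgin cells. The log2 ratio was -0.32 (-0.58 to -0.07), and -0.53 without clusters 4 and 5. Prdm1 did not follow Zfp683. Its highest parous level was in the Ccl3 and Ccl4 cluster, 41.3 CPM (30.6 to 54.6), and its highest virgin level in interferon-responding-like cells, 57.8 CPM (39.8 to 81.2), followed by circulating effector-like cells (40.3 CPM), whose interval overlapped. Resident-like cells had 23.6 and 29.2 CPM. The log2 ratio of Zfp683 to Prdm1 UMIs was 2.12 in parous and 2.80 in virgin resident-like cells and 2.87 in cluster 5, but -2.38 in parous and -1.06 in virgin cells of the Ccl3 and Ccl4 cluster. Of the thinned cells, 4 of 2859 parous and 1 of 2487 virgin ones had UMIs of both. Prdm1 was found in 3.77% of Zfp683-positive and 1.82% of Zfp683-negative parous cells, and in 1.02% and 2.72% of virgin ones, with overlapping intervals in both. In the Il2 and Gzmm cluster Prdm1 (36 and 39 UMIs) and Id2 were the 2 members at least 1.5-fold lower in parous cells, where 15.4% of genes were. None was higher there, as 3.5% of genes were.

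Of the 4 listed genes that Hobit and Blimp-1 are known to repress, Klf2, Ccr7 and Tcf7 were at least 1.5-fold lower over all parous CD8 T cells and none was higher (median log2 ratio -0.67). Without clusters 4 and 5, 1 of the 4 was lower (median -0.35). Among all genes 12.5% were lower, and 12.8% without those clusters. Naive-like cells, marked by Ccr7 and S1pr1 among others, made up 39.3% of virgin and 16.4% of parous cells. Within them 1 of the 4 was lower and none higher (median -0.22), where 11.3% of genes were lower. The part of the naive-like share in the values over all cells was not tested. In the resident-like cells 3 of the 4 were measured. The 1 that passed 1.5-fold was S1pr1, the receptor for leaving the tissue, with 37.3 CPM in parous and 25.1 CPM in virgin cells (1.501-fold, 19 and 31 UMIs). That value stood at the threshold, and no interval is given for it. In this cluster 13.8% of genes were higher by that much. Klf2, which drives S1pr1, had 593 and 407 CPM there, 1.46-fold.

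Runx3, a Runt factor needed for CD8 identity, was present in every state. Runx3 (ENSMUSG00000070691, chr4:135120652-135177990, plus strand) had 167 CPM in parous and 127 CPM in virgin cells (2211 and 2523 UMIs), a log2 ratio of 0.40 (0.31 to 0.48), and 0.12 without clusters 4 and 5. Its range was the narrowest of the members in the parous library, from 87.7 CPM in naive-like cells to 285 CPM in cluster 5 (257 to 315), next to cluster 4 at 248 CPM (226 to 272). In virgin cells it ran from 92.2 CPM in naive-like to 207 CPM in circulating effector-like cells. Resident-like cells had 149 CPM in parous and 104 CPM in virgin cells (log2 ratio 0.53, interval 0.10 to 0.95), under 1.5-fold. In cycling-like cells Runx3 was 1.71-fold higher in parous cells (107 and 278 UMIs, log2 ratio 0.77, interval 0.43 to 1.09). Among its relatives, Runx1 had 126 and 166 CPM and Cbfb, the shared partner, 51.6 and 57.8 CPM. Runx3, Eomes, Ahr and Bhlhe40 each overlap a noncoding gene on the other strand, which had 10 to 58 UMIs over all barcodes.

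Tbx21 and Eomes encode related T-box factors of effector and memory cells. Tbx21 (ENSMUSG00000001444, chr11:97098071-97115331, minus strand) had 134 CPM in parous and 130 CPM in virgin cells (1782 and 2597 UMIs), and the interval of the log2 ratio, 0.04 (-0.04 to 0.13), held 0. It was -0.16 without clusters 4 and 5. Eomes (ENSMUSG00000032446, chr9:118478212-118486132, plus strand) had 68.7 and 63.5 CPM (911 and 1267 UMIs), a log2 ratio of 0.11 (-0.01 to 0.24), and 0.16 (0.02 to 0.29) without clusters 4 and 5. Their summed UMIs stood in nearly the same ratio in the libraries, a log2 value of 0.97 (0.85 to 1.08) in parous and 1.04 (0.94 to 1.13) in virgin cells. Without clusters 4 and 5 the parous value was 0.72 (0.58 to 0.85).

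The log2 ratio of the pair ranged over the states from -1.15 to 5.71. Eomes was highest in the Ccl3 and Ccl4 cluster, 180 CPM in parous and 168 CPM in virgin cells, where Tbx21 had 205 and 226 CPM. Resident-like cells kept Tbx21, 255.5 CPM (213 to 303) in parous and 310 CPM (280 to 343) in virgin cells, and had almost no Eomes, 2 UMIs (3.93 CPM) and 17 UMIs (13.8 CPM). Their log2 ratios of Tbx21 to Eomes were 5.71 (4.14 to 9.08) and 4.45 (3.80 to 5.29). Cluster 5 had 249 CPM of Tbx21 and 14.5 CPM of Eomes (log2 ratio 4.07). Circulating effector-like cells, the cluster with the most virgin Tbx21 (316 CPM), had 75.7 and 72.4 CPM of Eomes in parous and virgin cells. None of the 5 members measured in that cluster differed by 1.5-fold between the libraries, where 11.9% of genes were higher and 7.13% lower. Zfp683, with 8 parous and 133 virgin UMIs, was under the minimum of 10 UMIs there. Its level was 3.76-fold higher in virgin cells (log2 ratio of parous over virgin -1.91, interval -3.23 to -0.97). In naive-like cells both genes were low (Tbx21 at 5.26 and 4.64 CPM, Eomes at 11.4 and 10.4 CPM) and the ratio turned to -1.08 (-2.24 to -0.08) in parous and -1.15 (-1.79 to -0.56) in virgin cells.

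In 2 states, the Klra6 cluster and the cycling-like cells, the intervals of the pair's ratio did not overlap between the libraries. In the Klra6 cluster, cells with Ly49 receptor transcripts, Eomes had 39.8 CPM (31.7 to 49.3) in parous and 82.5 CPM (70.4 to 96.1) in virgin cells, 2.07-fold higher in virgin cells, and was the 1 measured member past 1.5-fold there, where 14.1% of genes were lower and 4.2% higher. Zfp683, with 31 parous and 9 virgin UMIs, was under the minimum of 10 UMIs there. Its level was 3.18-fold higher in parous cells (log2 ratio 1.67, interval 0.62 to 2.98). Hic1 (10 and 1 UMIs) and Prdm1 (7 and 17 UMIs) were under the minimum too. In that cluster 63.3% of cells had a UMI of Cd8a and 64.5% of Cd8b1. The 7 NK or innate-like T cell markers summed there to 1024 CPM in parous and 651 CPM in virgin cells. The part of these in the Eomes values was not tested. Tbx21 had 91.1 and 104 CPM there, so the log2 ratio was 1.19 (0.82 to 1.58) in parous and 0.33 (0.03 to 0.64) in virgin cells. In cycling-like cells it was 0.52 in parous and 1.496 in virgin cells, in the other order. Over thinned cells, Eomes was found in 8.71% of Tbx21-positive and 8.54% of Tbx21-negative parous cells, and in 8.95% and 7.35% of virgin ones, with overlapping intervals in both.

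**Figure D4:**
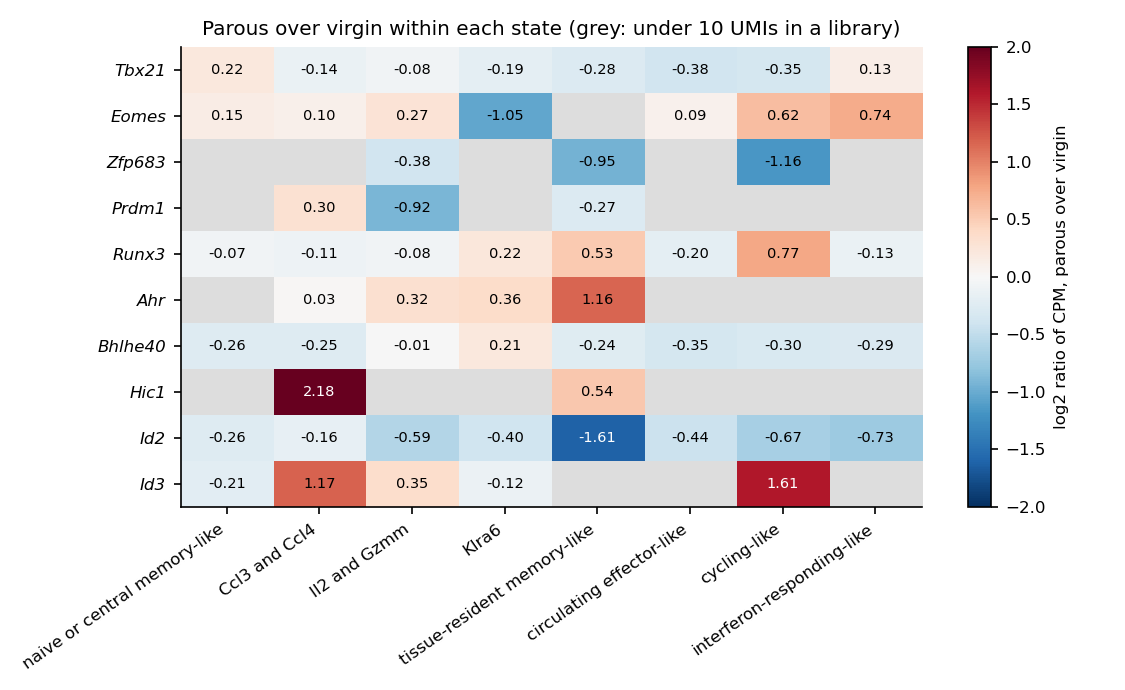
Log2 ratio of CPM, parous over virgin, of each gene (rows) within each state that held at least 25 cells of both libraries (columns, the low-RNA cluster left out), with red for higher in parous. Grey cells had under 10 UMIs in a library. Id2 is below 0 in all 8 states and lowest, at -1.61, in tissue-resident memory-like cells, while Bhlhe40 stays between -0.35 and 0.21.

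Of 9 genes known as targets activated by T-bet or Eomes, Gzmb (2.03-fold) and Ccl5 (1.56-fold) were higher and Cx3cr1 (2.83-fold) and Klrg1 (4.35-fold) lower in parous cells, and the median log2 ratio was -0.09. Among all measured genes 6.48% were higher and 12.5% lower by at least 1.5-fold. Without clusters 4 and 5 none of the 9 was higher and 3 were lower, where 4.5% and 12.8% of genes were. Cluster 5 carried 16542.5 CPM of the 6 summed circulating effector markers, Gzma and Gzmb among them. In resident-like cells Klrg1, a receptor of effector cells, had 462 virgin and 11 parous UMIs (374 and 21.6 CPM) and Gzmb, a cytotoxic granule protease, 707.5 and 187 CPM, both lower in parous cells. The circulating effector markers summed to 2019 CPM in virgin and 792 CPM in parous resident-like cells. The cycling markers summed to 291 and 39.3 CPM there, and the markers of cytokine-expressing activated cells to 2615 and 755 CPM. The part of these differences in the Id2 and Zfp683 values was not tested.

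Factors outside the 10 were described from lists. Of 17 measured effector and exhaustion factors, Nr4a2 (1.996-fold), Nr4a3, Irf8, Nfil3 and Ikzf2 (2.75-fold) were at least 1.5-fold higher and none lower, with a median of 0.21. Of 12 naive and central memory factors, Tcf7, Lef1 and Klf2 were lower and Zeb1 higher, with a median of -0.18. Among all measured genes 6.48% were higher and 12.5% lower by that much. With clusters 4 and 5 left out, 3 of 16 effector and exhaustion factors were higher and 1, Irf4, was lower (median 0.11). Of the 12 naive and central memory factors Zeb1 was then higher and Lef1 and Klf2 lower (median 0.0021). Without those clusters 4.5% of genes were higher and 12.8% lower. In the resident-like cells alone 6 of 11 measured naive factors were higher and none lower in parous cells (median 0.71, against -0.01 over all genes there), Satb1 at 4.71-fold and Klf3 and Foxp1 at 2.39-fold and 2.08-fold among them. Bach2, which holds back effector genes, was 1.96-fold higher there. In the resident-like cells 13.8% of genes were higher and 11.9% lower by at least 1.5-fold. Of the 4 measured E protein and Id genes outside the members, Id1 was higher over all CD8 T cells (1.66-fold, 62 and 56 UMIs). Tcf3 and Tcf12, among the E proteins that Id2 binds, had 35.7 and 52.6 CPM and 119 and 102 CPM.

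**Figure D5:**
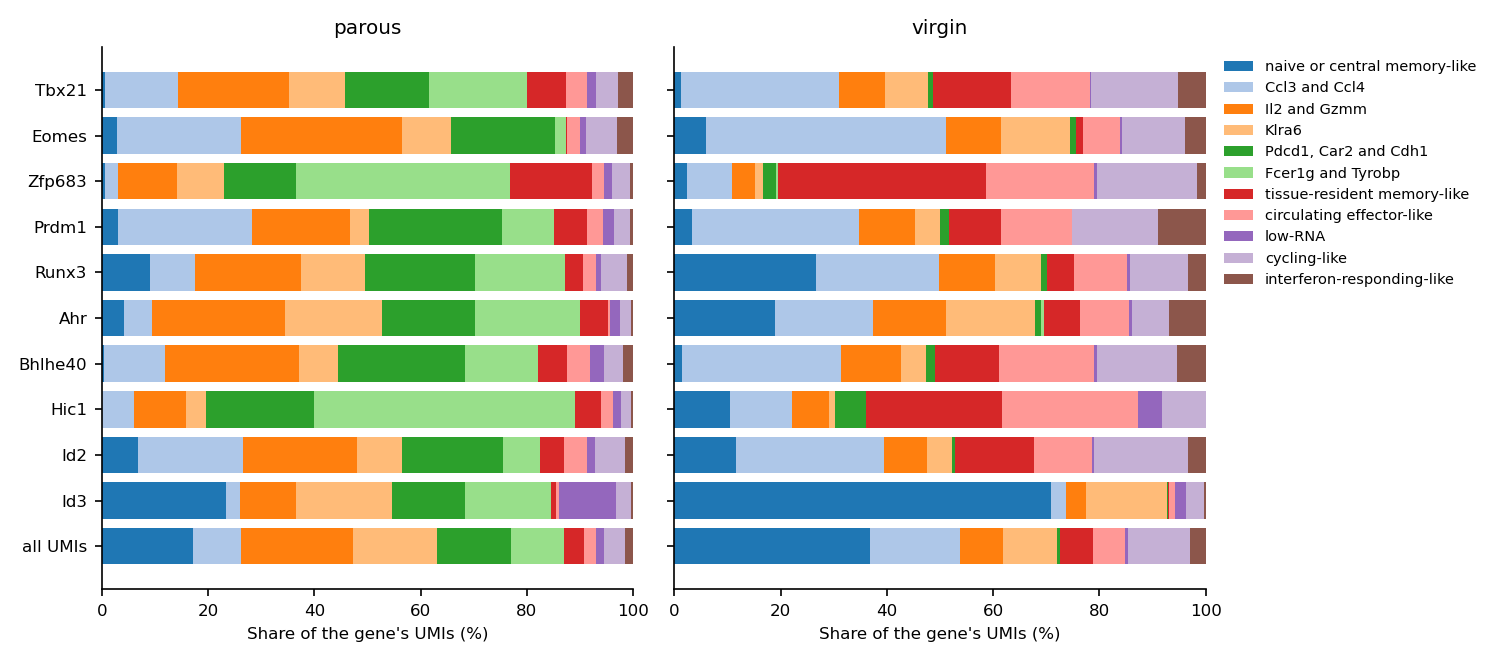
Share of each gene's UMIs found in each state (stacked bars, percent, x axis) for each gene (y axis) in the parous (left) and virgin (right) CD8 T cells, with all UMIs in the bottom bar. The Fcer1g and Tyrobp cluster holds 49.1% of parous Hic1 and 40.5% of parous Zfp683 UMIs, and naive-like cells hold 71.0% of virgin Id3 UMIs.

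Across the 11 clusters, with both libraries pooled, the members fell into partly shared patterns, given as Pearson r of log2(CPM + 10) over 11 points that share libraries. Tbx21 and Bhlhe40 were most alike (r = 0.95), followed by Prdm1 and Id2 (0.87). Id2 and Id3 ran against each other (-0.76). Eomes and Zfp683 had r = -0.33 and Zfp683 and Hic1 0.69. Among 4395 genes, the most like Tbx21 was Slamf7 (0.96), the most like Eomes Trps1 (0.95), the most like Zfp683 Napsa (0.92) and the most like Hic1 Cd244a (0.96). For Prdm1 it was H2-D1 (0.96), for Runx3 Rnf19b (0.93), for Ahr Irak2 (0.96), for Bhlhe40 Atp2b4 (0.98), for Id2 Ucp2 (0.97) and for Id3 Usp9x (0.90).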

How the data were processed

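Gene expression was measured in 2 libraries of single CD8 T cells made with a 10x Genomics 5′ kit, per the labels' protocols. The authors deposited raw UMI counts for each gene and barcode. Cell Ranger 7.0.0 is named per the file headers, and the build mm10, R 4.4.2 and Seurat per the submitters' processing notes, which give R and Seurat no purpose. How barcodes were called as cells is not given in the sources used here.

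Cells were kept with at least 500 genes, 1000 UMIs and under 10% mitochondrial UMIs. Scrublet (expected rate 0.06) marked 0.0662% of parous and 0.478% of virgin cells, was taken not to have worked, and its calls were not removed. For clustering, virgin UMIs were thinned to 58.7%, and the members, all listed transcription factors, receptor segments, ribosomal and mitochondrial genes were left out (2000 variable genes, 30 principal components, 15 neighbours, Leiden resolution 0.8, no integration). Clusters were named by the marker list with most genes 2-fold or more over the remaining cells and detected in 10% or more of the cluster, if 3 or more genes passed. Where lists tied, a name was given only if its list held more of the 10 leading genes. These thresholds, the rule for other cells (36 parous and 12 virgin) and the gene labels of unnamed clusters were set after seeing the data.

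UMIs were summed per library and state, divided by the total (CPM), and compared as log2 ratios with 0.5 added to each count, for genes that had 10 UMIs or more in both libraries. A difference was called by size only, 1.5-fold. Intervals are exact Poisson, conditional binomial or Clopper-Pearson at 95%. A count of 0 was given an upper limit of 3 counts. UMIs from the same cell are not independent, so intervals cover counting error only. Shares used cells thinned to 1400 UMIs, which left out 124 parous and 12 virgin cells. The named genes were the 10 members, genes of the lists, the genes most like each member and the genes that lead each cluster. For likeness, genes reached 50 CPM in at least 1 cluster of at least 50 cells. Gene positions come from GENCODE release M21 on GRCm38 by Ensembl ID. The members and lists were chosen with earlier results of these data known. The ratios were tested on simulated counts. Alternatives covered scaling, weighting, the added count, the cell filter, the cells compared, depth and clustering. Tools were Python 3.11.15, numpy 2.4.6, scipy 1.17.1, pandas 2.3.3, scanpy 1.11.5, leidenalg 0.10.2 and matplotlib 3.10.9.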

Additional observations from a re-analysis of the deposited data

Results flagged for a closer look

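Eomes was lower in parous cells of 1 state and higher in parous cells of 2 others, each by at least 1.5-fold with an interval that did not hold 0. Its log2 ratio of parous over virgin was -1.05 (-1.45 to -0.66) in the Klra6 cluster, 0.62 (0.13 to 1.08) in cycling-like cells and 0.74 (0.01 to 1.43) in interferon-responding-like cells. With 1 library per group the difference between these states was not tested.

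The barcodes left out by the cell filter also held UMIs of the members. In the 1908 parous barcodes left out, the 10 genes summed to 1142 CPM (1391 UMIs), against 970.5 CPM in the parous CD8 T cells that were kept. The 15 virgin barcodes left out held 10 member UMIs (807.6 CPM).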

How the results depend on the processing

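The count of members at least 1.5-fold higher in the parous library was 2 and became 3 without the naive-like class, where Id3 was added. It was 2 under each of the other alternatives tried. The count of lower members, 1, became 0 with median-of-ratios scaling, with the mean of per-cell CPM, over all barcodes and without the 5% of cells with most UMIs (Id2, the 1 counted, was at 1.51-fold). It became 2 without clusters 4 and 5, where 12.8% of genes were lower, and 3 without the naive-like class. The share over all genes is not given without the naive-like class, so the counts of 3 are not read against it. The log2 ratio of Tbx21 to Eomes in the parous library, 0.97, became 0.72 without clusters 4 and 5 and 0.71 without cluster 5, and the virgin value, 1.04, became 0.89 without the 5% of cells with most UMIs. The parous log2 ratio of Id2 to Id3, 2.47, became 2.75 without the naive-like class and 2.61 without cluster 5 or without the low-RNA cluster. The virgin value, 3.35, became 3.09 over all barcodes, 4.95 without the naive-like class and 3.12 without the 5% of cells with most UMIs. Where cells were left out, the change shows only that the value depended on those cells. The cause was not tested for any of the alternatives. Leaving out single clusters was added after seeing the data. Within the resident-like class, 4 other clusterings gave Id2 log2 ratios from -1.72 to -1.58 and Zfp683 ratios from -1.23 to -0.97, while Prdm1, -0.27, ran from -0.67 to 0.02. No called value changed sign. No paired analysis was possible because each group was 1 library. The main limits are that there was no replicate, that 1908 parous barcodes were left out against 15 virgin ones, and that Hic1, Ahr, Prdm1, Zfp683 and Id3 had under 700 UMIs per library.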
